A study of Mus musculus with 12 samples.

Results

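The 38 genes described here encode the transporters and enzymes that carry glucose to lactate, the kinases that hold pyruvate back from the citric acid cycle, and the factors and targets of the response to low oxygen. They were chosen by the gene names of the array's probes and make up 38 of the 23791 genes named on it. All 38 were found, on 61 probes, and 14 had more than 1 probe. The brightest probe of each gene was well above the array's local background on all 12 arrays, so each gene entered every comparison. Of the 38, 26 are transporters, glycolytic enzymes or pyruvate dehydrogenase kinases, and 12 are the hypoxia-inducible factor Hif1a, oxygen sensors or hypoxia targets.

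Glycolysis splits glucose into pyruvate in the cytosol, and lactate dehydrogenase turns pyruvate into lactate. When oxygen is scarce, prolyl hydroxylases of the Egln family stop marking Hif1a for destruction, and the stabilised factor switches on glucose transporters, glycolytic enzymes, pyruvate dehydrogenase kinases and genes for vessel growth and cell survival. Mouse pluripotent cells are known for a high rate of glycolysis, and the balance between glycolysis and respiration is known to shift between pluripotent states.

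RNA from embryonic stem cells of the mouse (mESC) and from reprogrammed somatic cells of the mouse, induced pluripotent stem cells (iPSC), was hybridised to 12 one-colour Agilent arrays, 1 per sample. Of the mESC arrays, 4 were labelled Tbx3-low and 4 Tbx3-high; of the iPSC arrays, 2 were labelled Tbx3 null and 2 Tbx3 wildtype. Tbx3 codes for a transcription factor with a T-box domain that takes part in keeping cells pluripotent. The labels do not give the strain, the culture medium, the means by which Tbx3 was high or low, the null allele or the number of iPSC lines. Nor do they tell if replicate arrays stand for independent cultures, and p-values therefore measure the spread between these arrays, which may be technical.

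A level is the log2 of a probe's signal relative to the 75th percentile of all probes on its array, and a difference of 1 between group means is a 2-fold change. The Tbx3 probe was higher in Tbx3-high than in Tbx3-low mESC by 1.33 ± 0.07 (SE, adjusted p = 1.81e-07, limma). It was not lower in the iPSC labelled Tbx3-null but higher than in wild type by 0.32 ± 0.10 (adjusted p = 0.0298), so the null group is named here by its label. All 10 pluripotent cell markers (Pou5f1, Nanog, Sox2 and others) were well above background on every array. The 12 fibroblast markers, which would show feeder cells, had summed levels of 6.38 to 7.52 array 75th percentiles in Tbx3-low and 4.75 to 29.5 in Tbx3-high mESC. The highest sum was that of Tbx3-high replicate 2, where the surface marker Thy1 alone gave 26.6. In the iPSC the sums were 4.94 to 5.63 for the null label and 4.93 to 5.26 for the wild type. The largest part of each sum was Thy1 in Tbx3-high mESC and Tagln elsewhere, so like sums do not show like feeder content. Of 9 of these markers tested in iPSC, 3 rose and 2 fell under the null label (limma, adjusted p under 0.05), with differences of -2.32 to 2.58. Of 6 tested in mESC, 2 rose and 1 fell in Tbx3-high (-1.36 to 1.83). Whether these markers bear on the results was not tested. In every array 0 spots were saturated. The groups of each cell type lay in different columns of a slide, so position and group cannot be told apart, and mESC and iPSC lay on separate slides and were never compared directly.

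Of the 38 genes, 11 differed between Tbx3-high and Tbx3-low mESC, 6 higher and 5 lower, at an adjusted p under 0.05 (limma, Benjamini-Hochberg over all genes tested). This was 28.9% of the list, against 34.7% of all 15736 genes tested. Among all genes 19.5% were higher and 15.2% lower. The median difference was 0.04 both for the list and for all genes, so the share and the median of the list stood near the background. The higher genes were Slc2a3, Pfkp, Aldoc, Pdk2, Pdk4 and Vegfa, with folds of 1.24 to 1.38. The lower genes were Eno3, Pdk3, Egln3, Ndrg1 and Adm, with folds of 1.20 to 1.54. For 12 of the 38 genes every array of 1 group lay above every array of the other, which held for 35.7% of all genes tested. Among the enzymes, transporters and kinases 5 of 26 rose and 2 fell, and among the hypoxia genes 1 of 12 rose and 3 fell. These are bulk samples, in which fewer cells of a type and less RNA per cell cannot be told apart.

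**Figure D1:**
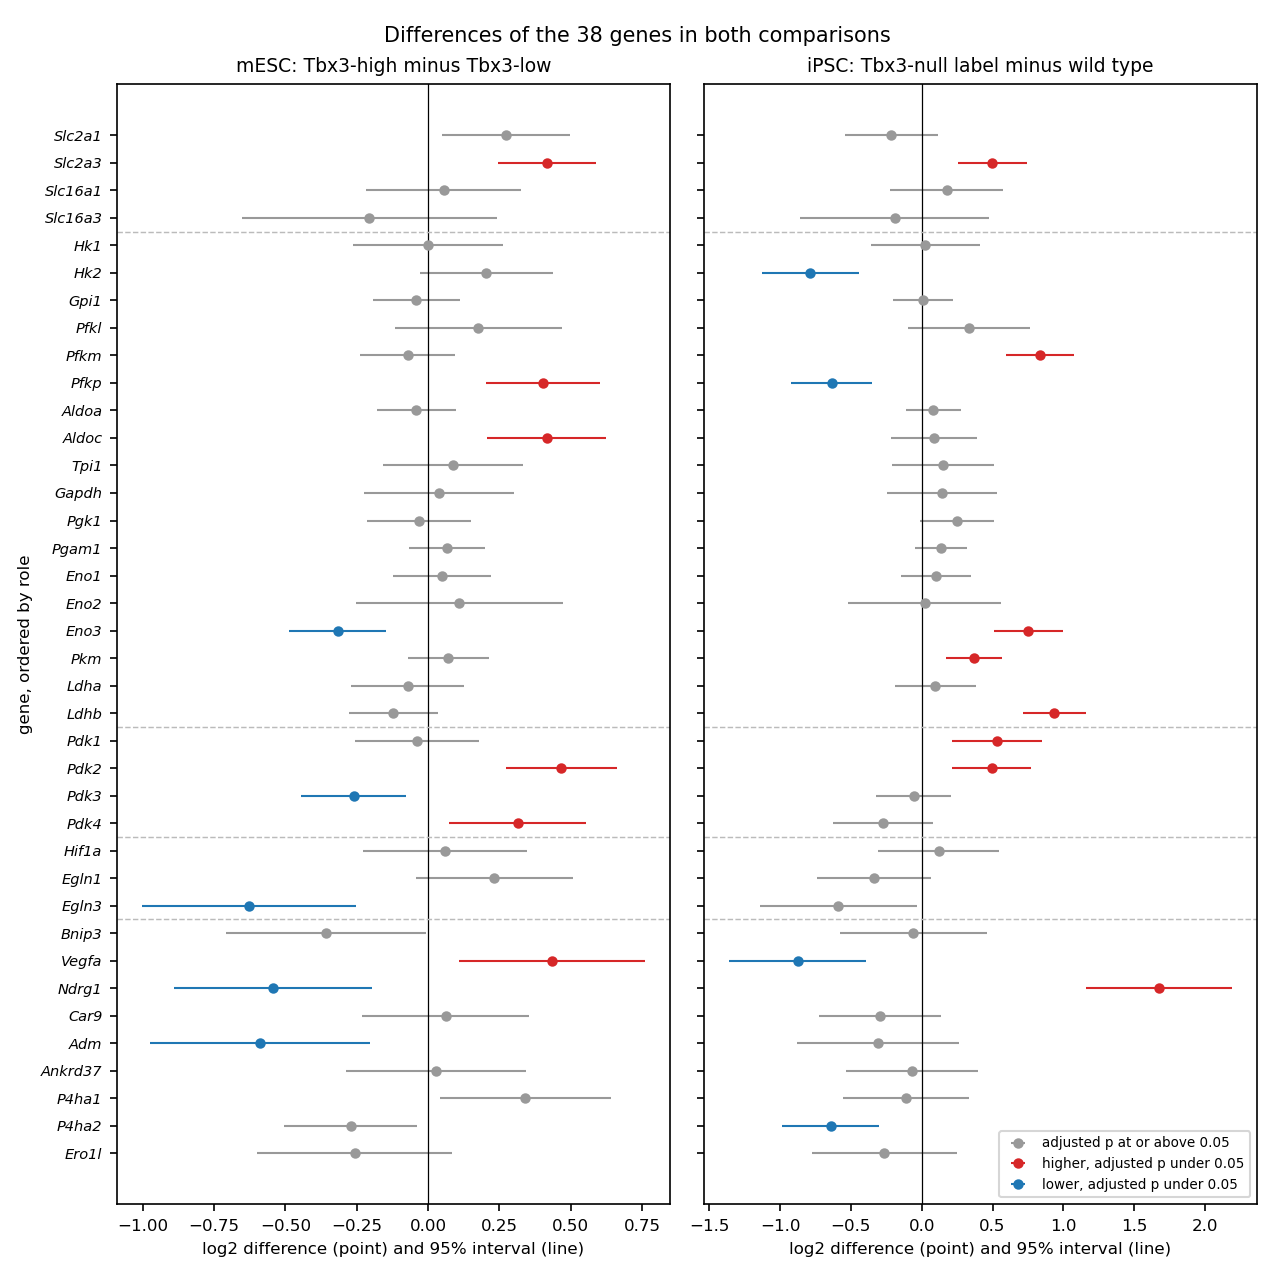
Log2 difference (horizontal axis) of each of the 38 genes (vertical axis, grouped by role between dashed lines) in mESC (left, Tbx3-high minus Tbx3-low, 4 arrays a group) and iPSC (right, Tbx3-null label minus wild type, 2 arrays a group), with 95% intervals from the limma fit as lines. Red and blue points passed an adjusted p under 0.05: 6 up and 5 down in mESC, 8 up and 4 down in iPSC; the 2 horizontal scales differ.

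Among the transporters, Slc2a3, the high-affinity neuronal-type glucose transporter Glut3, rose in Tbx3-high mESC. Its levels were 6.54, 6.70, 6.66 and 6.71 on the Tbx3-low arrays and 6.997, 6.93, 7.21 and 7.14 on the Tbx3-high arrays. Every Tbx3-high array lay above every Tbx3-low array. The difference was 0.42 ± 0.08 (SE, n = 4 and 4, adjusted p = 0.00153), a 1.33-fold rise. Of the 11 calls, it was the only 1 to pass under every alternative run, with a highest adjusted p of 0.049 (limma). These runs included each mESC slide row alone, 2 against 2 arrays (0.34 in row 1 and 0.50 in row 2). The iPSC arrays stayed in those fits and shared in the estimate of spread.

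Slc2a1, the widespread glucose transporter Glut1, read 6.23, 6.06, 6.41 and 6.13 in Tbx3-low and 6.38, 6.49, 6.49 and 6.56 in Tbx3-high mESC. Tbx3-low replicate 3 lay above Tbx3-high replicate 1, so the groups overlapped. The difference of 0.27 ± 0.10 missed the threshold (adjusted p = 0.0586) and passed with the replicate number as a block (adjusted p = 0.0355) and without Tbx3-low replicate 3 (0.0275). It also passed with the mESC arrays fitted alone (adjusted p = 0.0347) and with array weights (0.0291). The monocarboxylate transporters, which move lactate across the membrane, did not pass. Slc16a1 differed by 0.05 (95% interval -0.22 to 0.33). Slc16a3 differed by -0.21 (adjusted p = 0.478), although its 4 Tbx3-high arrays, at 4.35 to 4.54, all lay below its 4 Tbx3-low arrays, at 4.55 to 4.74.

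Of the 18 glycolytic enzymes, 2 rose and 1 fell in Tbx3-high mESC (16.7% passed, against 34.7% of all genes tested). Pfkp, the platelet isoform of phosphofructokinase, which catalyses the committed step of glycolysis, rose. It read 3.24, 3.22, 3.15 and 3.17 in Tbx3-low and 3.57, 3.64, 3.57 and 3.62 in Tbx3-high mESC. The groups were well apart, with a difference of 0.40 ± 0.09 (adjusted p = 0.00507). A second, dimmer Pfkp probe differed by 0.13 ± 0.11 and did not pass (adjusted p = 0.43). Here and below, second probes were read in a separate limma fit of every probe. Its p-values are adjusted over all probes tested, so they are not on the scale of the gene fit.

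Aldoc, the brain-type aldolase, which splits fructose bisphosphate into triose phosphates, also rose. Its Tbx3-low arrays read 4.46, 4.40, 4.50 and 4.53, and its Tbx3-high arrays read 4.86, 4.82, 4.97 and 4.90. Again the groups did not overlap, and the difference was 0.42 ± 0.10 (adjusted p = 0.00552). Eno3, the muscle-type enolase, fell. It read 2.32, 2.32, 2.35 and 2.37 in Tbx3-low against 1.98, 2.03, 2.07 and 2.02 in Tbx3-high mESC. Its groups were separated by more than the spread within either, with a difference of -0.32 ± 0.08 (adjusted p = 0.00802).

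The other 15 enzymes did not pass, and most of their intervals were narrow. For Aldoa, the main aldolase of most cells, the difference was -0.04 (95% interval -0.18 to 0.10). For Gpi1, which isomerises glucose 6-phosphate, it was -0.04 (-0.19 to 0.11). For Pgam1, a phosphoglycerate mutase, it was 0.07 (-0.07 to 0.20). These intervals leave out a change of the size seen for Pfkp or Aldoc. Pkm, which makes pyruvate, differed by 0.07 (-0.07 to 0.21), and Eno1, the widespread enolase, by 0.05 (-0.12 to 0.22). Hk2, an inducible hexokinase of the first step, read 4.13 to 4.39 in Tbx3-low and 4.27 to 4.66 in Tbx3-high mESC. Its difference of 0.20 missed the threshold (adjusted p = 0.164) and passed narrowly with the replicate number as a block (adjusted p = 0.0499). Pfkl, Pfkm, Tpi1, Gapdh, Pgk1, Eno2, Ldha and Ldhb lay between -0.12 and 0.18, each with an adjusted p of 0.218 or more.

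**Figure D2:**
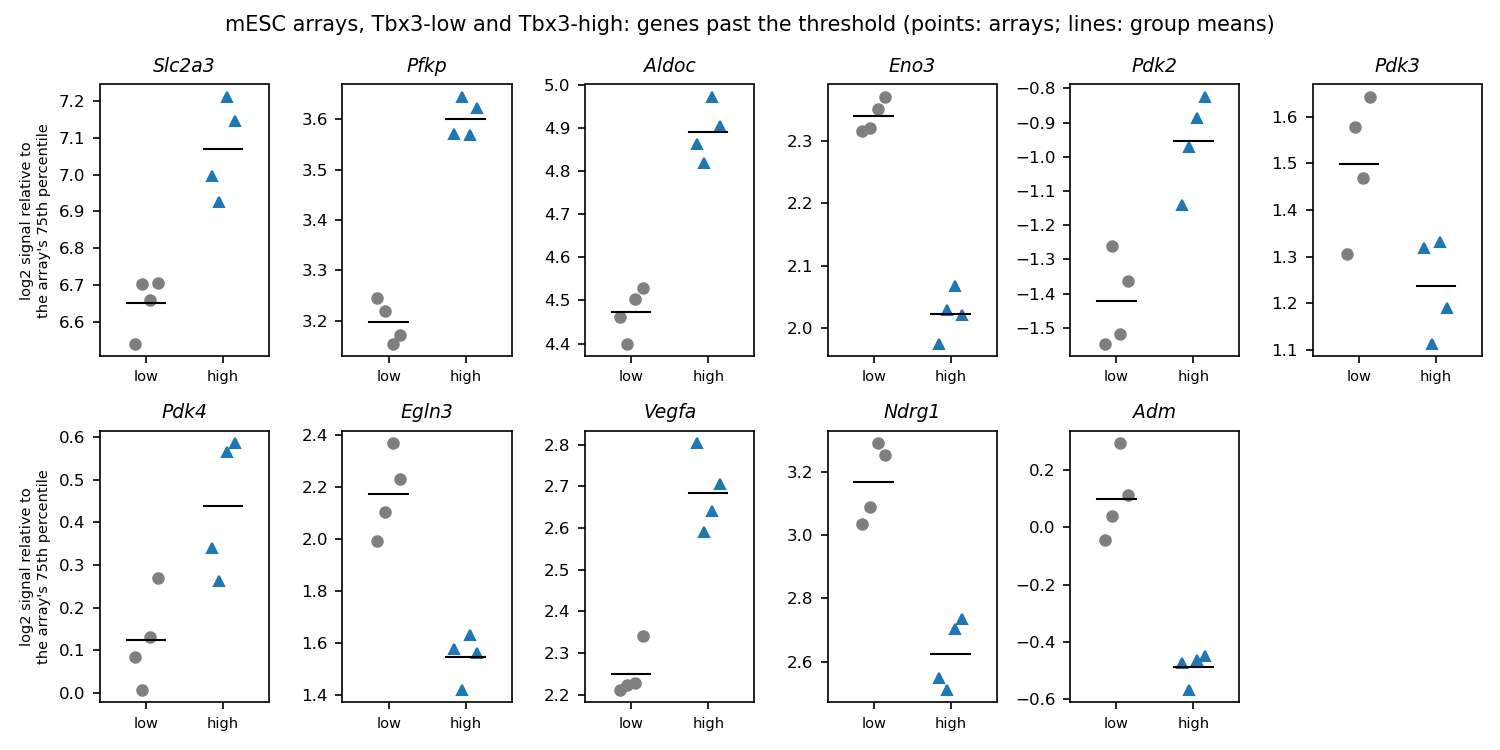
Level on each mESC array (vertical axes, log2 signal relative to the array's 75th percentile, each panel on its own scale that does not start at 0) of the 11 genes past the threshold, for the 4 Tbx3-low (grey circles) and 4 Tbx3-high (blue triangles) arrays, with group means as lines. In 9 of the 11 panels the groups are separate; for Pdk3 and Pdk4 they overlap.

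The pyruvate dehydrogenase kinases switch off the enzyme complex that feeds pyruvate into the citric acid cycle. Of the 4 kinases 2 rose and 1 fell in Tbx3-high mESC. This was 75% of only 4 genes, against 34.7% of all genes tested. Pdk2, an isoform of wide expression, read -1.55, -1.26, -1.52 and -1.36 in Tbx3-low and -1.14, -0.97, -0.89 and -0.82 in Tbx3-high mESC. No Tbx3-low array reached the Tbx3-high range, and the difference was 0.47 ± 0.09 (adjusted p = 0.00169), a 1.38-fold rise. A second Pdk2 probe rose by 0.42 ± 0.10 (adjusted p = 0.00897).

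Pdk4, the isoform induced by fasting, read 0.09, 0.01, 0.13 and 0.27 in Tbx3-low and 0.34, 0.26, 0.56 and 0.59 in Tbx3-high mESC. Tbx3-low replicate 4 and Tbx3-high replicate 2 were level with each other. The difference was 0.31 ± 0.11 (adjusted p = 0.0441). The call was lost without Tbx3-low replicate 1, 2 or 3 (adjusted p = 0.0911, 0.11 and 0.0779), without Tbx3-high replicate 1, 3 or 4 (0.0524, 0.108 and 0.115), and under normexp background correction (0.0532).

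Pdk3 read 1.31, 1.58, 1.47 and 1.64 in Tbx3-low and 1.32, 1.11, 1.33 and 1.19 in Tbx3-high mESC. Tbx3-low replicate 1 lay within the Tbx3-high range. The fall of -0.26 ± 0.08 (adjusted p = 0.0321) did not pass with the replicate number as a block (adjusted p = 0.0722). It was also lost without Tbx3-low replicate 2, 3 or 4 (0.083, 0.0526 and 0.0897) or Tbx3-high replicate 2 or 4 (0.0864 and 0.0769). Pdk1, the isoform best known as a Hif1a target, differed by -0.04 ± 0.10 (adjusted p = 0.807).

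Hif1a binds hypoxia response elements, whose core is written here as ACGTG. The letters ACGTG were searched on both strands (as ACGTG and CACGT, which overlap in the palindrome CACGTG) of the promoter windows in RefSeq's annotation of build GRCm38.p6, each running from 250 bases before to 50 bases after a gene start. They stood in 6447 of 32851 windows (19.6%) in the mouse genome. They stood in 10 of the 12 windows of the hypoxia genes (83.3%, in 10 of the 11 genes with a window). In the enzyme, transporter and kinase group it was 17 of 38 windows (44.7%, in 15 of 25 genes). Slc2a3 and Ndrg1 had no window to search. A match is a description of these letters, not a binding site. The hypoxia genes were listed as Hif1a, oxygen sensors and targets of the response, so their share is no independent result. The base composition of the windows was not taken into account. The windows of the hypoxia genes that passed a comparison are shown because their measured directions differ while some carry the letters and others do not. Each is 5′ to 3′ on the gene's strand, with ACGTG or CACGT in capitals.
Egln3 (chr12:54203825-54204124, minus strand): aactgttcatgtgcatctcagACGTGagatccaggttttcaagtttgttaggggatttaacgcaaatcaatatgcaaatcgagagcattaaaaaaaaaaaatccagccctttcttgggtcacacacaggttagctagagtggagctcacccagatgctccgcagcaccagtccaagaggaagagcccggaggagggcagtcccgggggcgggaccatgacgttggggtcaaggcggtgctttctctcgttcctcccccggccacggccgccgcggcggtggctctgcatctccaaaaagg
Vegfa, first start (chr17:46032328-46032627, minus strand): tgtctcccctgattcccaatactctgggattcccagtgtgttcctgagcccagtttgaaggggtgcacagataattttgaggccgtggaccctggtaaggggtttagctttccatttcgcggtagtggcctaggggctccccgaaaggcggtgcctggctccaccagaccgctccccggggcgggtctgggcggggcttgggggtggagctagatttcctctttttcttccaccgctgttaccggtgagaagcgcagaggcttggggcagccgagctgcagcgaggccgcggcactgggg
Vegfa, second start (chr17:46025114-46025413, minus strand): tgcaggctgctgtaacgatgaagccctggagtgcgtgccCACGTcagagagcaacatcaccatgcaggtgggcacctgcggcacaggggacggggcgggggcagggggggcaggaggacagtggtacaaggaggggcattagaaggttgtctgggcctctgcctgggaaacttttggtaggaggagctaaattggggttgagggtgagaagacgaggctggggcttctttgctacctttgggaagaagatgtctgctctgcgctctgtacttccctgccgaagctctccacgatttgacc
Adm (chr7:110627407-110627706, plus strand): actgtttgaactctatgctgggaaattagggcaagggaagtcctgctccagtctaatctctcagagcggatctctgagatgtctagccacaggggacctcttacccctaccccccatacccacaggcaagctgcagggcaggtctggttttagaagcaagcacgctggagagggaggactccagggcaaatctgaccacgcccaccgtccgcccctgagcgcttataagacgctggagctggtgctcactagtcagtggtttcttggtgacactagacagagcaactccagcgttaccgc
P4ha2 (chr11:54100674-54100973, plus strand): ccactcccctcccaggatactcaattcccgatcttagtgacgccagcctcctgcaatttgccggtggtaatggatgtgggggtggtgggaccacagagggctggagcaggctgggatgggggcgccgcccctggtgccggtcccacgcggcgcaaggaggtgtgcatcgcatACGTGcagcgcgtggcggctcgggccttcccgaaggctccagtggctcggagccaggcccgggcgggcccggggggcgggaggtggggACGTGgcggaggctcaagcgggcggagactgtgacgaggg
The Egln3 window holds ACGTG 1 time and the P4ha2 window 2 times. The second Vegfa window holds CACGT 1 time, and the first Vegfa window and the Adm window hold neither. Vegfa therefore counts among the 10 genes only through its second start, which lies downstream of the first on the gene's strand.

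Among Hif1a and the oxygen sensors, Egln3, a prolyl hydroxylase that is itself a Hif1a target, fell in Tbx3-high mESC. It read 1.99, 2.102, 2.37 and 2.23 in Tbx3-low and 1.57, 1.42, 1.63 and 1.56 in Tbx3-high mESC. All Tbx3-high arrays were lower than all Tbx3-low arrays. The difference was -0.63 ± 0.17 (adjusted p = 0.0144), a 1.54-fold fall, and a second Egln3 probe fell by 0.53 ± 0.15 on the log2 scale (adjusted p = 0.0269). Hif1a itself differed by 0.06 (95% interval -0.23 to 0.35) on its brightest probe. A second, much dimmer Hif1a probe had the other sign, at -0.44 ± 0.19, and did not pass either (adjusted p = 0.128). Egln1, the main oxygen sensor of most cells, differed by 0.23 ± 0.12 (adjusted p = 0.176) and passed without Tbx3-high replicate 1 (0.0388).

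Of the 9 hypoxia targets, Vegfa rose and Ndrg1 and Adm fell (33.3% passed, against 34.7% of all genes tested). Vegfa, the endothelial growth factor, read 2.21, 2.22, 2.23 and 2.34 in Tbx3-low and 2.80, 2.59, 2.64 and 2.71 in Tbx3-high mESC. The groups did not overlap. The difference was 0.43 ± 0.15 (adjusted p = 0.0413). The call was lost when any 1 of the 8 arrays was left out (adjusted p = 0.0556 to 0.0984) and under quantile normalization (0.0518). With the mESC arrays fitted alone the call was kept. The main fit takes 1 spread from all 12 arrays, and the iPSC arrays of Vegfa spread more widely than its mESC arrays. They read 1.05 and 0.33 in wild type and 0.09 and -0.46 under the null label. A dimmer Vegfa probe differed in mESC by 0.20 ± 0.09 (adjusted p = 0.131). In that fit of every probe the brightest Vegfa probe did not pass either (limma, adjusted p = 0.058).

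Ndrg1, a stress-induced gene named for its repression by N-myc, read 3.03, 3.09, 3.29 and 3.25 in Tbx3-low and 2.55, 2.51, 2.70 and 2.73 in Tbx3-high mESC. Every Tbx3-high array was the lower. The difference was -0.54 ± 0.16 (adjusted p = 0.0204). The call was lost without Tbx3-low replicate 3 (adjusted p = 0.053), Tbx3-high replicate 1 (0.0503) or Tbx3-high replicate 2 (0.0514), the last being the array with the high Thy1 level. With the mESC arrays fitted alone the call was kept.

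Adm, the precursor of the vasodilator adrenomedullin, read -0.05, 0.04, 0.29 and 0.11 in Tbx3-low and -0.47, -0.57, -0.46 and -0.45 in Tbx3-high mESC. Its Tbx3-high arrays lay close together and below all the others. The difference was -0.59 ± 0.18 (adjusted p = 0.0224), which missed the threshold without Tbx3-low replicate 3 (adjusted p = 0.0612) or Tbx3-high replicate 2 (0.0522). With the mESC arrays fitted alone the call was kept.

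Of the targets that did not pass, Bnip3 and P4ha2 nevertheless showed groups that did not overlap. Bnip3, a mitophagy receptor, read 5.61 to 5.76 in Tbx3-low and 5.27 to 5.37 in Tbx3-high mESC. Its difference of -0.36 ± 0.16 had an adjusted p of 0.106 in the fit of all 12 arrays, 0.00847 with the replicate block and 0.00157 with the mESC arrays fitted alone. P4ha2, a collagen prolyl hydroxylase subunit, read 2.55 to 2.69 in Tbx3-low and 2.28 to 2.38 in Tbx3-high mESC. Its difference of -0.27 ± 0.11 had an adjusted p of 0.0692, and 0.0265 with the block. P4ha2 also passed as lower with normexp background correction (adjusted p = 0.0353), quantile normalization (0.0376) and the series table's values (0.0288). With the mESC arrays fitted alone the adjusted p was 0.00689.

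P4ha1, the other collagen prolyl hydroxylase subunit of the list, differed by 0.34 ± 0.14 (adjusted p = 0.076) and passed with the block (0.0342) and without Tbx3-high replicate 2 (0.0459). P4ha1 also passed with the mESC arrays fitted alone (adjusted p = 0.034) and with the mean over its probes (0.55, adjusted p = 0.000995). The remaining targets lay nearer to 0 or spread more widely. Car9, a carbonic anhydrase widely used as a hypoxia marker, differed by 0.06 (95% interval -0.23 to 0.35). Ankrd37, an ankyrin repeat gene, differed by 0.03 (-0.29 to 0.34), and Ero1l, an oxidase of the endoplasmic reticulum, by -0.26 ± 0.16 (adjusted p = 0.233).

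Of the same 38 genes, 12 differed between the iPSC labelled Tbx3-null and the wild-type iPSC, 8 higher and 4 lower. This was 31.6% of the list, while 38.2% of all 17583 genes tested passed, 21.7% up and 16.6% down. Higher under the null label were Slc2a3, Pfkm, Eno3, Pkm, Ldhb, Pdk1, Pdk2 and Ndrg1. Lower were Hk2, Pfkp, Vegfa and P4ha2. For 19 of the 38 genes both arrays of 1 group lay above both of the other, against 71.4% of all genes tested. Of the enzymes, transporters and kinases 7 of 26 rose and 2 fell, with a median difference of 0.12, and of the hypoxia genes 1 of 12 rose and 2 fell, with a median of -0.28. The median over all genes was 0.07. Spots well above background made up 68.6% and 68.0% of the wild-type arrays and 63.0% and 62.4% of the null-labelled arrays, and its part in the results was not tested.

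Slc2a3 rose under the null label. It read 6.14 and 6.03 on the wild-type arrays and 6.65 and 6.52 on the null-labelled arrays. Both null-labelled arrays were higher, by 0.50 ± 0.11 (SE, n = 2 and 2, adjusted p = 0.00465). The call depended on the scaling between arrays: with quantile normalization the difference was 0.29 (adjusted p = 0.0774) and with the series table's values 0.33 (0.0673). Slc2a1 differed by -0.21 ± 0.15 (adjusted p = 0.286) and passed as lower under those same alternatives, by -0.42 (0.0425) and -0.39 (0.046). Slc16a1 (0.18) and Slc16a3 (-0.19) did not pass, and their groups overlapped.

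Of the 18 glycolytic enzymes 4 rose and 2 fell under the null label (33.3% passed, against 38.2% of all genes tested). Differences were above 0 for 16 of the 18, against 55.8% of all genes tested, and 7 of these 16 stayed above 0 with quantile normalization and 7 with the series table's values. The phosphofructokinase isoforms went different ways. Pfkm, the muscle isoform, read 3.09 and 3.095 in wild type and 4.02 and 3.84 under the null label. The wild-type arrays were nearly equal, and the null-labelled arrays higher by 0.84 ± 0.11 (adjusted p = 0.000153), a 1.78-fold rise.

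Pfkp read 3.18 and 2.75 in wild type and 2.45 and 2.20 under the null label. Both null-labelled arrays were lower, by -0.64 ± 0.13 (adjusted p = 0.00302), and the second Pfkp probe differed by -0.40 ± 0.16 (adjusted p = 0.0961). Pfkl, the liver isoform, differed by 0.33 ± 0.19 (adjusted p = 0.209). Hk2 read 4.47 and 4.33 in wild type and 3.79 and 3.44 under the null label. It was lower on both null-labelled arrays, by -0.79 ± 0.15 (adjusted p = 0.00237), a 1.72-fold fall.

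Downstream in the pathway, Eno3 read 1.56 and 1.40 in wild type and 2.41 and 2.05 under the null label. It was higher on both null-labelled arrays, by 0.75 ± 0.11 (adjusted p = 0.000356). Ldhb, the lactate dehydrogenase subunit that favours turning lactate back into pyruvate, read 4.65 and 4.45 in wild type and 5.57 and 5.41 under the null label. The rise of 0.93 ± 0.10 (adjusted p = 4.3e-05), 1.91-fold, was the largest among the enzymes. Calls for Hk2, Pfkm, Pfkp, Eno3 and Ldhb were kept under every alternative run.

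Pkm read 6.56 and 6.46 in wild type and 6.88 and 6.88 under the null label. The null-labelled arrays were level and above both others. Its rise of 0.37 ± 0.09 (adjusted p = 0.00767) did not pass with quantile normalization (0.138), in the series table (0.417), with the iPSC arrays fitted alone (0.0633) or without wild-type replicate 2 (0.053). Aldoa, Gpi1, Pgam1 and Eno1 did not pass, at 0.08 (95% interval -0.11 to 0.27), 0.01 (-0.20 to 0.22), 0.14 (-0.05 to 0.32) and 0.10 (-0.14 to 0.35). Aldoc, which rose in Tbx3-high mESC, differed by 0.08 ± 0.14 (adjusted p = 0.673). Tpi1, which interconverts the triose phosphates, and Pgk1, which makes the first ATP of the payoff phase, missed the threshold at 0.15 (adjusted p = 0.511) and 0.25 (0.123) and passed without null-labelled replicate 2 (0.027 for each). The brightest Pgk1 probe is placed by the array's annotation on chromosome 3 of build mm9, not on the X chromosome where its other probe lies, and a copy of the gene cannot be told apart from Pgk1 there.

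**Figure D3:**
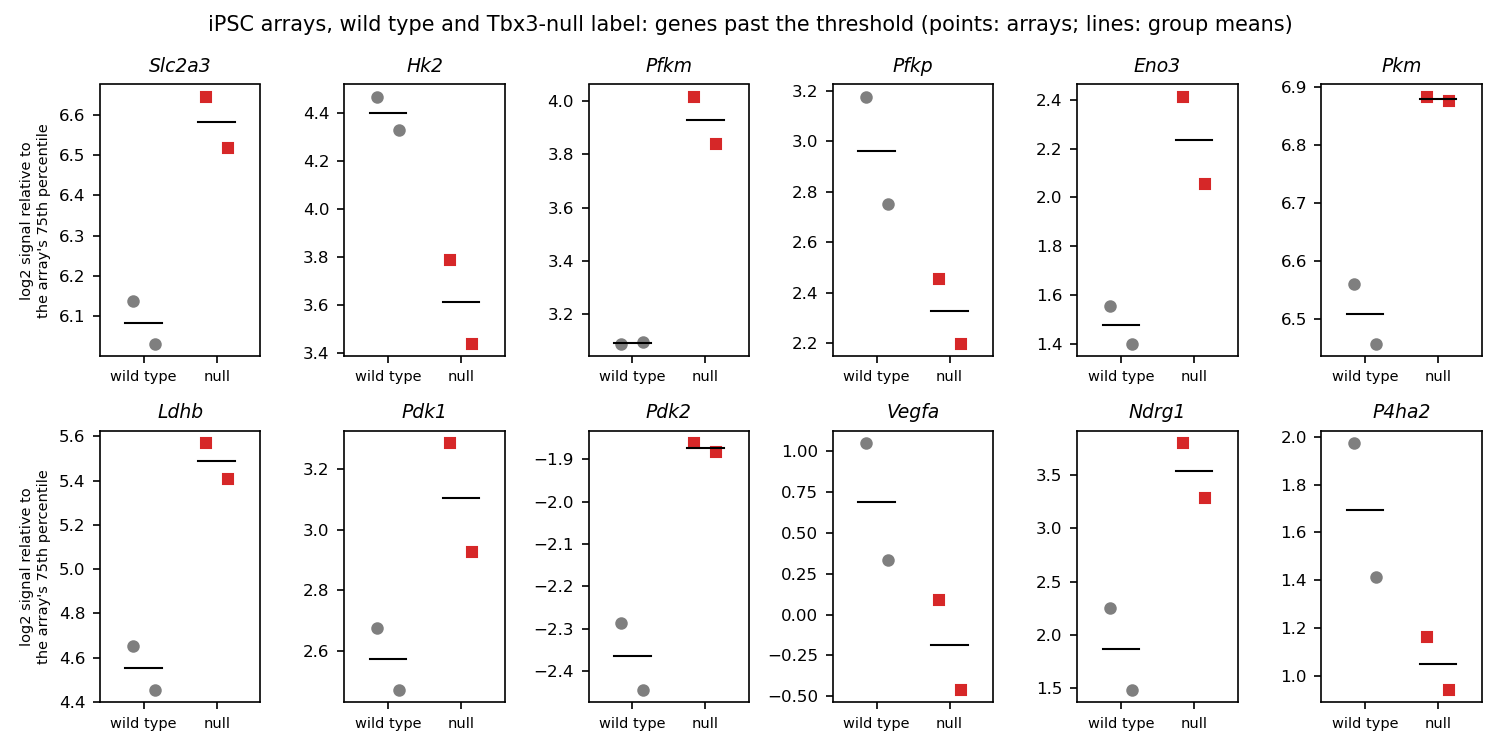
Level on each iPSC array (vertical axes, log2 signal relative to the array's 75th percentile, each panel on its own scale that does not start at 0) of the 12 genes past the threshold, for the 2 wild-type (grey circles) and 2 null-labelled (red squares) arrays, with group means as lines. The groups do not overlap in any of the 12 panels.

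Both Pdk1 and Pdk2 rose under the null label. Pdk1 read 2.68 and 2.47 in wild type and 3.29 and 2.93 under the null label. The null-labelled arrays were higher by 0.53 ± 0.14 (adjusted p = 0.0133), a call lost without null-labelled replicate 1 (0.116), without wild-type replicate 2 (0.0915) or with the iPSC arrays fitted alone (0.0598). Pdk2 read -2.29 and -2.44 in wild type and -1.86 and -1.88 under the null label. Both null-labelled arrays lay above, by 0.49 ± 0.13 (adjusted p = 0.0106), and the call was lost without null-labelled replicate 1 (0.0521) or wild-type replicate 2 (0.073). The second Pdk2 probe differed by 0.40 ± 0.14 and did not pass (adjusted p = 0.0585). Pdk3 (-0.06) and Pdk4 (-0.27) did not pass, although Pdk4 passed as lower without wild-type replicate 2 (adjusted p = 0.0437).

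Among the hypoxia genes, Ndrg1 had the largest difference of all 38. It read 2.25 and 1.48 in wild type and 3.80 and 3.29 under the null label. The gap between the groups exceeded the wide spread within wild type, at 1.67 ± 0.23 (adjusted p = 0.000267), a 3.19-fold rise that was kept under every alternative run.

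Vegfa and P4ha2 fell under the null label. Vegfa read 1.05 and 0.33 in wild type and 0.09 and -0.46 under the null label. The groups did not overlap, though each was wide. The difference was -0.88 ± 0.22 (adjusted p = 0.00919), and the dimmer Vegfa probe fell by 0.60 ± 0.13 on the log2 scale (adjusted p = 0.00661). The call on the brightest probe was lost without null-labelled replicate 2 (0.078), without wild-type replicate 1 (0.0757) or with the iPSC arrays fitted alone (0.0685).

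P4ha2 read 1.97 and 1.41 in wild type and 1.16 and 0.94 under the null label. Both null-labelled arrays were lower, by -0.64 ± 0.15 (adjusted p = 0.00735), a call lost without null-labelled replicate 2 (0.0555) or with the iPSC arrays fitted alone (0.0676). Egln3 read 0.21 and -0.11 in wild type and -0.07 and -1.01 under the null label, and the groups overlapped. Its difference of -0.59 ± 0.25 did not pass (adjusted p = 0.091) and passed without null-labelled replicate 1 (0.00209) and in the series table (0.0485).

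Adm differed by -0.31 ± 0.26 (adjusted p = 0.389) and passed as lower without wild-type replicate 2 (0.0026). Hif1a differed by 0.12 (95% interval -0.31 to 0.55), Car9 by -0.29 (-0.73 to 0.14) and Ankrd37 by -0.07 (-0.54 to 0.40). The dimmer Hif1a probe differed by -0.08 ± 0.28.

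The hypoxia genes spread widely within each iPSC group. For 10 of the 12, array 1 was above array 2 both in the null-labelled and in the wild-type group, which held for 26.2% of all genes tested. The median gap between arrays 1 and 2 of these 12 genes was 0.44 under the null label and 0.55 in wild type, while over all genes it was 0.04 and -0.02. Among the 26 enzymes, transporters and kinases 18 (69.2%) had array 1 higher in both groups, by medians of 0.15 and 0.14. This pattern was noticed in the values and is given with no test. The 75th percentile of the signal also was higher on array 1 than on array 2, at 924 and 699.8 under the null label and 1007 and 921.6 in wild type, and its part in the pattern was not tested.

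Several genes had probes that disagreed. Of 3 probes of Hk1, the widespread hexokinase, the brightest did not differ in mESC (adjusted p = 0.997), while the others rose in Tbx3-high mESC by 0.53 ± 0.14 (adjusted p = 0.0197) and 0.68 ± 0.10 (0.000533). In iPSC 1 of those probes fell by 0.66 ± 0.21 on the log2 scale (adjusted p = 0.0387), and the mean over the probes fell with it. The sign for Hk1 therefore depends on the probe read.

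Of 7 probes of Gapdh, the triose phosphate dehydrogenase often used as a reference gene, the brightest differed by 0.14 in iPSC and did not pass, and 5 of the other 6 rose under the null label by 0.34 to 0.47. None of the 7 passed in mESC. Each Gapdh probe also lists 1 to 3 noncoding transcripts, and 1 is placed on chromosome 8, and Gapdh cannot be told apart from these there. A second P4ha1 probe rose in Tbx3-high mESC by 0.76 ± 0.10 (adjusted p = 0.000293), and a second Bnip3 probe fell by 0.48 ± 0.14 on the log2 scale (adjusted p = 0.0311).

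Ldha, the lactate dehydrogenase subunit that favours lactate formation, has a brightest probe, the most downstream of its 3, that differed in iPSC by 0.10 ± 0.13 (adjusted p = 0.606). Its other probes, which lie upstream, rose under the null label by 0.61 ± 0.13 (adjusted p = 0.00672) and 0.41 ± 0.11 (0.0169). None of the 3 passed in mESC. The upstream probes are shown, as the array files give them and in lower case throughout, because the probes of Ldha disagree; what sets them apart was not tested.
Ldha upstream probe, rise of 0.61 (mm9 chr7:54103010-54103069, plus strand): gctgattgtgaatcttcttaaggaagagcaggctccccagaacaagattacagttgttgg
Ldha middle probe, rise of 0.41 (mm9 chr7:54107294-54107353, plus strand): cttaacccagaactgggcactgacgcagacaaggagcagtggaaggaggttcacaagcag
The brightest probe lies at chr7:54110937-54110996 of the same build.

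**Figure D4:**
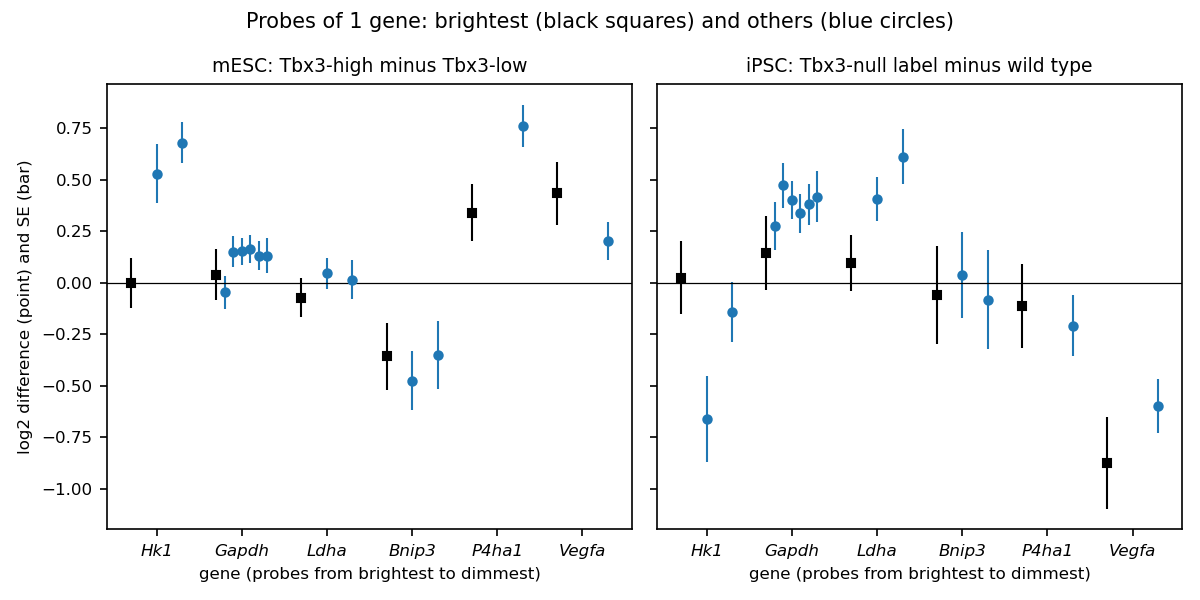
Log2 difference of each probe (points, with the SE as bars) for 6 genes with disagreeing probes (horizontal axis, probes of a gene from brightest to dimmest), in mESC (left) and iPSC (right). Black squares are the brightest probes; for Hk1 it lies near 0 in both panels while its other probes are at 0.53 and 0.68 in mESC, and for Gapdh and Ldha the other probes are above the brightest in iPSC.

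Of the 38 genes 17 passed in at least 1 comparison (44.7%) and 6 in both (15.8%), against 56.4% and 18.7% of the 15573 genes tested in both. Slc2a3 and Pdk2 were higher in Tbx3-high mESC and higher under the null label. Pfkp and Vegfa were higher in Tbx3-high mESC and lower under the null label. Eno3 and Ndrg1 were lower in Tbx3-high mESC and higher under the null label. Of the 6, none was lower in both. Each pattern seen held 2 genes, or 5.26% of the list. Among the 15573 genes, 3.27% were higher in both and 2.36% lower in both. Another 6.57% were higher in Tbx3-high mESC and lower under the null label, and 6.52% the reverse. With so few genes, the split of the list was not told apart from these shares.

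The difference between the high-minus-low change in mESC and the wild-type-minus-null change in iPSC was then tested gene by gene. It passed for 13 of the 38 genes, 9 above 0 and 4 below, or 34.2%, while 37.9% of all 15573 genes tested passed, 23.1% above 0 and 14.8% below. A positive value means that the mESC change exceeded the wild-type-minus-null change. For all genes the median of this difference was 0.12, and it was 0.04 with quantile normalization and 0.02 in the series table. With those scalings the split of the 38 genes was 5 above and 4 below, and 6 above and 7 below. In the iPSC comparison the split of 8 up and 4 down became 6 and 5 with quantile normalization, and 6 and 6 in the series table.

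Slc2a3 and Pdk2 had differences of 0.92 ± 0.13 (adjusted p = 0.00031) and 0.96 ± 0.15 (0.000542), since both were higher in Tbx3-high mESC and lower in wild-type iPSC. Ndrg1 had 1.13 ± 0.27 (0.00709), Ldhb 0.81 ± 0.12 (0.000402) and Pfkm 0.76 ± 0.13 (0.000911). P4ha2 had -0.91 ± 0.18 (0.00242). These 6 passed under every alternative run. Egln3 had the most negative value, -1.21 ± 0.29 (0.00729). For Pfkp (-0.23, adjusted p = 0.271) and Vegfa (-0.44, adjusted p = 0.202) the changes in the 2 cell types were not shown to differ. Both passed with the series table's values (0.03 and 0.0404) and without wild-type replicate 2 (0.0277 and 0.0177), and Vegfa also with the replicate block (0.0235).

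**Figure D5:**
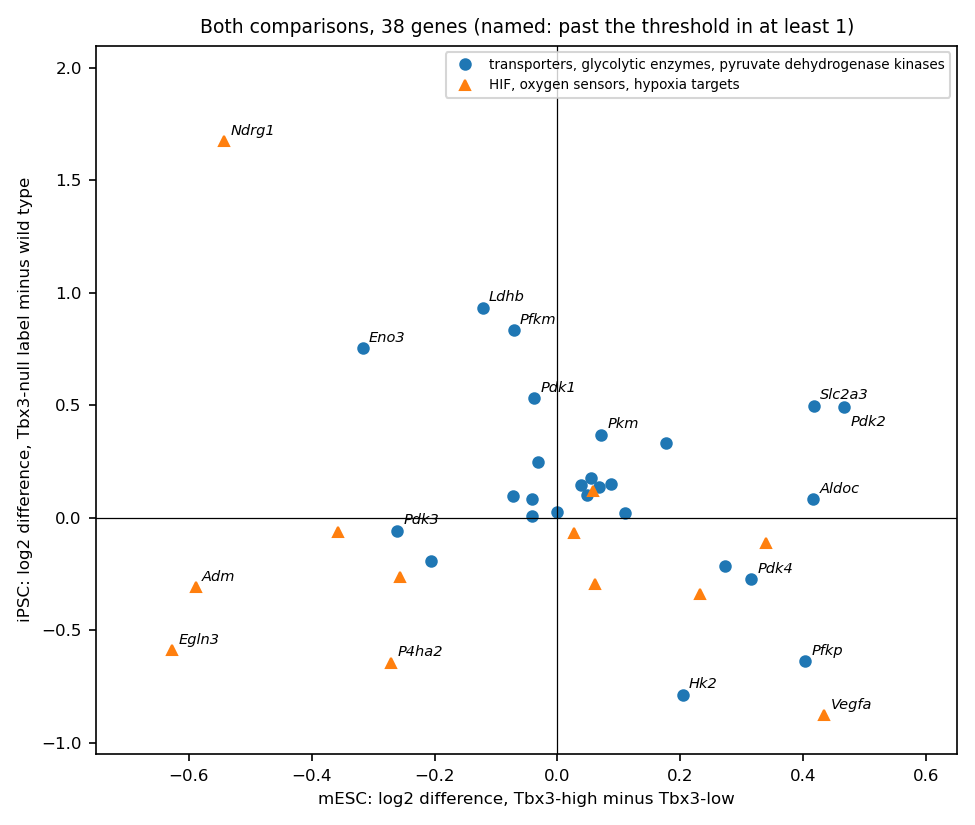
Log2 difference in mESC (horizontal axis, Tbx3-high minus Tbx3-low) against log2 difference in iPSC (vertical axis, Tbx3-null label minus wild type) for the 38 genes, 1 point each, with circles for transporters, enzymes and kinases and triangles for hypoxia genes. Slc2a3 and Pdk2 lie above 0 on both axes, Pfkp and Vegfa lie at lower right, and Ndrg1 and Eno3 at upper left.

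Other genes of these pathways, from lists of general knowledge, were read in the same fits. The shares that passed are to be set against 34.7% of all genes in mESC and 38.2% in iPSC, and nothing is called particular to a list. In Tbx3-high mESC the mitochondrial pyruvate carrier subunits Mpc1 (0.66 ± 0.08, adjusted p = 6.32e-05) and Mpc2 (0.34 ± 0.09, 0.0135) both rose, and under the null label in iPSC both fell (-0.72 ± 0.11, 0.00059, and -0.42 ± 0.13, 0.0284). The Mpc2 call in iPSC was lost without null-labelled replicate 2 or either wild-type array. Of 10 genes of pyruvate entry into mitochondria, 3 rose and 2 fell in mESC (50% passed), and the 4 that passed in iPSC all fell (40%). Pdp1 and Pdp2 encode the phosphatases that undo the kinases' work. Pdp1 fell in mESC by 0.33 ± 0.10 on the log2 scale (adjusted p = 0.0233), a call lost when single arrays were left out, and Pdp2 fell in iPSC by 0.85 ± 0.13 (adjusted p = 0.00063), a call lost with the mean over its probes.

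Of 13 other glycolysis genes measured in mESC 3 rose and 3 fell (46.2% passed), and of 15 in iPSC 2 rose and 3 fell (33.3%). Ldhc, the testis-type lactate dehydrogenase, moved most: it fell by 0.62 ± 0.07 in Tbx3-high mESC (adjusted p = 4.44e-05) and rose by 1.69 ± 0.10 under the null label (5.86e-07). Pfkfb2 and Pfkfb1, which set the level of the phosphofructokinase activator, fell in mESC by 0.40 and 0.36. In iPSC Pgam2, the muscle phosphoglycerate mutase, fell by 0.71.

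In the pentose phosphate pathway, 1 of 7 genes rose and 2 fell in Tbx3-high mESC, while the 4 of 7 that passed under the null label all rose. The shares that passed were 42.9% and 57.1%, against 34.7% and 38.2% of all genes. In iPSC 21.7% of all genes passed as higher. Tkt, transketolase, rose in mESC by 0.62 ± 0.14 (adjusted p = 0.00462). Rpe and Pgd, which act on ribulose 5-phosphate and on 6-phosphogluconate, fell there by 0.35 and 0.26 and rose in iPSC by 0.90 ± 0.17 and 0.72 ± 0.09 (adjusted p = 0.00165 and 0.000164). The fall of Rpe was lost when single mESC arrays were left out, and the rise of Taldo1, transaldolase, in iPSC (0.44) was lost without either null-labelled array or wild-type replicate 1, and under quantile normalization. Of 4 gluconeogenesis genes 50% passed in each comparison, and the fructose bisphosphatases moved in both comparisons. Fbp1 fell in both, 2.83-fold in mESC (adjusted p = 3.72e-06) and 2.40-fold in iPSC (0.000328). Fbp2 rose by 0.87 ± 0.11 in Tbx3-high mESC (8.06e-05) and fell by 1.52 ± 0.16 under the null label (3.28e-05).

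Among 8 other regulators of the Hif pathway, the 3 that passed in Tbx3-high mESC all rose, and 3 rose and 3 fell under the null label. The shares that passed were 37.5% and 75%, against 34.7% and 38.2% of all genes. Cited2, a Hif-induced competitor for the coactivators of Hif1a, rose by 1.02 ± 0.11 in mESC (adjusted p = 2.06e-05) and fell by 1.35 ± 0.15 under the null label (6.31e-05). Arnt, the partner of Hif1a, rose by 0.38 in mESC on its brightest probe but did not pass on the mean over its probes. Epas1, the Hif2a factor, rose there by 0.28, though it missed the threshold under normexp background correction (adjusted p = 0.051). In iPSC Arnt2 rose by 0.98, a call lost without null-labelled replicate 2 or wild-type replicate 1, and Vhl, the ligase subunit that removes Hif1a, fell by 0.72 ± 0.12 (adjusted p = 0.000974). Of 19 other hypoxia targets, 4 rose and 5 fell in mESC, and 2 rose and 4 fell in iPSC (47.4% and 31.6% passed). Car12, a carbonic anhydrase, and Igfbp3, a growth factor binding protein, fell in mESC (-1.28 and -1.22). In iPSC Ak4, an adenylate kinase, and Gys1, glycogen synthase, fell (-1.16 and -0.78). Gys1 rose in Tbx3-high mESC (0.55 ± 0.09, adjusted p = 0.000646), as did Edn1, an endothelin (0.41 ± 0.08, 0.0019), and Plin2, a lipid droplet protein (0.39 ± 0.09, 0.00596), these mESC values being named after they were seen. The call for Ak4 was lost with the mean over its probes.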

How the data were processed

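Total RNA of 12 samples was labelled with Cy3, per the labels' protocols, and read on one-colour Agilent arrays. Spot intensity (processed signal with background subtracted, mean signal, local background) and other marks for outlying, saturated or dim spots came from Feature Extraction 10.7.3.1, per the file headers. How the authors made the log2 values of the deposited series table is not stated in the labels; they served as an alternative. Its column medians were 6.58 to 6.61, and each column followed its own array's mean spot intensity on the log2 scale (lowest r = 0.99884), so direction and log base are known while scaling and centring are not.

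Outlier spots were left out, spots of a probe averaged, and log2 intensity taken relative to each array's 75th percentile. Probes were named through RefSeq GRCm38.p6: of 55681, accessions matched 27656, symbols 3401 and synonyms 307, while 22808 have no name and 1509 that of the file. A gene was represented by its brightest probe and tested where all arrays of 1 or both groups compared had that probe well above background. A single limma fit (version 3.58.1, R 4.3.3) held the 12 arrays, with a mean for each of the 4 groups and eBayes moderation (residual degrees of freedom 8, prior 3.23, 2.17 and 3.35), with Benjamini-Hochberg adjustment over all genes tested; the script was tested on simulated data. Second probes of a gene were read in a further limma fit of every probe, adjusted over all probes tested. In it the brightest mESC probes of Vegfa and Pdk4 did not pass (adjusted p = 0.058 and 0.0623). Precision is limited by the number of arrays. The genes named are all 38, and of each other list those past the threshold with the largest change, at most 3 a list and comparison; some of these are not reported here. The genes and lists were chosen with earlier results of these data known.

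Same-numbered mESC arrays deviated together from their group means (r = 0.14, 0.246, 0.172 and 0.11) and share a slide row, so the fit with the replicate number as a block is printed where it changes an mESC call. Array 1 of Tbx3-low correlated more with Tbx3-high array 2 (r = 0.339) than with array 1. Alternatives were normexp with an offset of 50, quantile normalization, the series table, other probe filters, the mean over probes, cell types fitted alone, array weights, slide rows, the replicate block and leaving out each array.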

Additional observations from a re-analysis of the deposited data

Results flagged for a closer look

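In 6 of 76 groups of 4 mESC arrays (38 genes in 2 groups) 1 array stood apart from the other 3; chance alone gives about 1 in 20 groups. For Hk2, Tbx3-low replicate 2 read 4.13, with the nearest at 4.35. For Eno2, the neuronal enolase, Tbx3-low replicate 3 read 1.14, with the nearest at 1.30. Vegfa was high on Tbx3-low replicate 4, at 2.34 against 2.23. Car9 was low on Tbx3-low replicate 2, at -2.02 against -1.86, and on Tbx3-high replicate 4, at -2.12 against -1.74. P4ha1 was high on Tbx3-low replicate 1, at -1.73 against -1.90.

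The change in mESC (Tbx3-high minus Tbx3-low) and the change in iPSC (wild type minus null label) differed in limma for 13 genes. Above 0 were Slc2a3 (0.915), Pfkm (0.764), Aldoc (0.50), Eno3 (0.436), Pkm (0.441), Ldhb (0.813), Pdk1 (0.495), Pdk2 (0.959) and Ndrg1 (1.13). Below 0 were Hk2 (-0.582), Egln3 (-1.21), Adm (-0.896) and P4ha2 (-0.914). Single arrays ended the call for Hk2 (without null-labelled replicate 2 or wild-type replicate 1, adjusted p = 0.129 and 0.105), Eno3 (without null-labelled replicate 1 or wild-type replicate 2, 0.122 and 0.0999), Aldoc (0.0514 to 0.172 over 6 arrays), Pdk1 (0.0554 to 0.202 over 7 arrays) and Adm (0.0504 to 0.123 over 8 arrays). The Pkm call was lost with quantile normalization (0.101), the series table's values (0.258), normexp background correction (0.0512) and slide row 1 alone for mESC (0.0812).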

How the results depend on the processing

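The number of the 38 genes past the threshold in mESC (11) was 6 with no filter on dim probes, where more genes enter the adjustment. With slide row 1 or 2 alone it was 1 and 3, where 2 mESC arrays a group remain beside the iPSC arrays. It was 7 to 9 when 1 array was left out (7 without Tbx3-low replicate 3). With the mESC arrays fitted alone it was 15, and every call of the main fit was kept. In iPSC the count (12) was 11 to 12 when 1 array was left out and 8 with the iPSC arrays fitted alone. For the difference between cell types (13) it was 6 and 8 with slide row 1 or 2 alone, and 10 to 14 when 1 array was left out. With the replicate block the counts were 15 in mESC, 13 in iPSC and 15 for the difference. In mESC the block changed no call other than those printed beside Slc2a1, Hk2, Pdk3, Bnip3, P4ha1 and P4ha2. The iPSC arrays share 1 slide row, and over all genes same-numbered iPSC arrays correlated at only r = 0.0286. For 10 of the 12 hypoxia genes, however, array 1 was above array 2 in both iPSC groups. Whether the iPSC numbers mark pairs is therefore not known. In iPSC the block added Egln3 (adjusted p = 0.0315), and for the difference it added Bnip3 (0.036) and Vegfa.

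With the mean over all probes in place of the brightest, Hk1 turned from -0.000844 to 0.40 in mESC (adjusted p = 0.000138) and from 0.03 to -0.26 in iPSC (0.0146). No called member changed sign under any alternative run. Of the calls, 1 of 11 in mESC, 6 of 12 in iPSC and 6 of 13 for the difference passed under every alternative. Within slide rows 1 and 2, each called mESC gene kept its direction: Egln3 differed by -0.55 and -0.70, Ndrg1 by -0.53 and -0.55, Adm by -0.52 and -0.66, Pdk2 by 0.35 and 0.59, Pfkp by 0.37 and 0.43, Aldoc by 0.41 and 0.42, and Eno3 by -0.32 in each. Vegfa differed by 0.48 and 0.39, Pdk4 by 0.25 and 0.37, and Pdk3 by -0.23 and -0.30. The brightest probe of each member was well above background on all 12 arrays. Some second probes were dim. The second P4ha1 probe read -4.41 on Tbx3-low replicate 3, where the lowest signal well above background was -4.61.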
